A study of Mus musculus with 12 samples.

Results

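The circadian clock genes described here are 10 genes chosen by symbol: Arntl, Clock, Npas2, Per1, Per2, Per3, Cry1, Nr1d1, Nr1d2 and Dbp. They are 10 of the 36047 genes to which the liver transcripts were assigned, and the choice used no threshold on a measured value. All 10 had enough reads to be tested, among 14670 genes tested in all. Liver RNA was sequenced from 12 adult male C57Bl/6J mice that had eaten their diet for 7 days. There were 3 mice on each of 4 diets, RF.Ctrl and HF.Ctrl as controls and RF.SAAR and HF.SAAR as their restricted counterparts. RF stands for regular fat and HF for high fat. SAAR stands for sulfur amino acid restriction, in which methionine was lowered and glutamic acid put in its place. Every diet, the Ctrl diets included, lacked cysteine. According to the study's methods, the mice were housed singly under a fixed light and dark cycle and had no food for some hours before death. The study also describes an injection of heavy water (deuterium oxide) and drinking water enriched with it during the diets. The part of this labeling in the clock values was not tested. The clock time of tissue collection was not given in the sources used here. In the labels the entries for diet and for dietary fat content are exchanged, so that HF stands under diet, and the groups were read from both entries together.

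The clock of a liver cell is a loop of transcription and repression. BMAL1, the product of Arntl, pairs with CLOCK or NPAS2 and switches on the Per and Cry genes, Nr1d1, Nr1d2 and Dbp through E-boxes, and PER and CRY proteins then return to the nucleus and hold that pair back. REV-ERB proteins, made from Nr1d1 and Nr1d2, repress Arntl, Npas2 and Cry1 through ROR elements. Because of this, Arntl transcripts peak at nearly the opposite time of day from Dbp transcripts in mouse liver, and in that tissue feeding time and hormones can shift the loop apart from the clock of the brain.

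Libraries held from 16203094 to 21230092 estimated counts. The 6 hepatocyte markers, Alb, Ttr, Apoa1, Cps1, Hnf4a and Apoc3, summed to between 66243 and 87826 CPM, counts scaled to a common library total, and none was absent in any mouse. A list of 10 transcripts, mostly digestive enzymes, of the pancreatic acinar cell set some libraries apart. Their sum was 4644 CPM in HF.Ctrl mouse 2 and 13187 CPM in HF.SAAR mouse 3. It was 2698 CPM in HF.SAAR mouse 2, 1253 CPM in HF.Ctrl mouse 1 and 1010 CPM in RF.Ctrl mouse 1, and at most 43.7 CPM in the other 7 mice. Results that rest on these libraries are given below with and without them, and the part of pancreatic RNA in any result was not tested. Leaving out the mice above 1000 CPM leaves HF.Ctrl mouse 3 and HF.SAAR mouse 1 as the only high-fat mice. In whole liver, fewer cells of a type and less RNA per cell cannot be told apart.

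RefSeq promoter windows on GRCm38.p6, from 250 bases before a transcript's start to 50 after it, were at hand for 9 of the 10 genes, in 13 windows. The E-box CACGTG stood in windows of 2 of these 9 genes, Per1 and Cry1, against 7.15% of all 32851 promoter windows. The related CACGTT stood in Cry1 and Nr1d1, against 4.68% of all windows. TTATGTAA, a D-box that DBP and its relatives bind, stood only in Per3 among the 9 and there in 2 copies, against 0.938% of all windows. TAGGTCA, the core site that ROR and REV-ERB proteins recognise, stood only in Arntl, against 2.61% of all windows. TTACGTAA and the cyclic AMP response element TGACGTCA stood in none of the 9, against 0.119% and 1.79% of all windows. These counts are of genes and the shares are of windows, and a gene with several windows has more chances of a match. Every search covered both strands, no match overlapped another, and a match is a description and not a shown binding site. The 5 stretches that held matches are printed below, since they show the letters searched for in these promoters. Capitals mark the matches, each sequence reads along its gene, and AACGTG is CACGTT on the other strand.
Per1 at chr11:69098763-69098808, plus strand: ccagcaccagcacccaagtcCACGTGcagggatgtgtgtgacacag
Cry1 at chr10:85185089-85185153, minus strand: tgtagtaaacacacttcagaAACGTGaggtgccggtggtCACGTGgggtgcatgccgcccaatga
Nr1d1 at chr11:98775380-98775425, minus strand: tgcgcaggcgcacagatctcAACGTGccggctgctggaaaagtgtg
Per3 at chr4:151044796-151044890, minus strand: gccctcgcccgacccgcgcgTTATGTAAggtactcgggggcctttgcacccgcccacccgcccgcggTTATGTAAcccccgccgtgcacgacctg
Arntl at chr7:113207531-113207557, plus strand: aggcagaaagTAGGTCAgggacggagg
The E-box of Per1 began 166 bases before the start of its transcript and that of Cry1 60 bases before it. The Arntl match began 31 bases after the start of a RefSeq transcript of that gene. Per2 is named only.

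Across the 12 mice, Per2 and Per3 fell on the SAAR diets by edgeR, and none of the other 8 clock genes passed that test. Without the 2 mice above 4000 acinar CPM neither call held (edgeR adjusted p = 0.0575 for Per2 and 0.0835 for Per3). The Per3 call stayed in 2 of the 12 fits that left out 1 mouse. DESeq2, an alternative test, also called Clock, Nr1d1 and Dbp over both fat levels. Dbp had a fitted value lower by more than that of Per2, but its mice were more scattered and its edgeR adjusted p missed the threshold. Arntl, Clock and Cry1 had fitted values above 0 in both fat levels, and none of them passed the edgeR test either. With each fat level tested apart, at 3 mice a group, no clock gene passed the edgeR test. By DESeq2 5 were called on regular fat and 0 on high fat. The following paragraphs give the values gene by gene, as CPM relative to a library size scaled by trimmed means (TMM), with the quasi-likelihood test of edgeR adjusted over all 14670 genes.

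**Figure D1:**
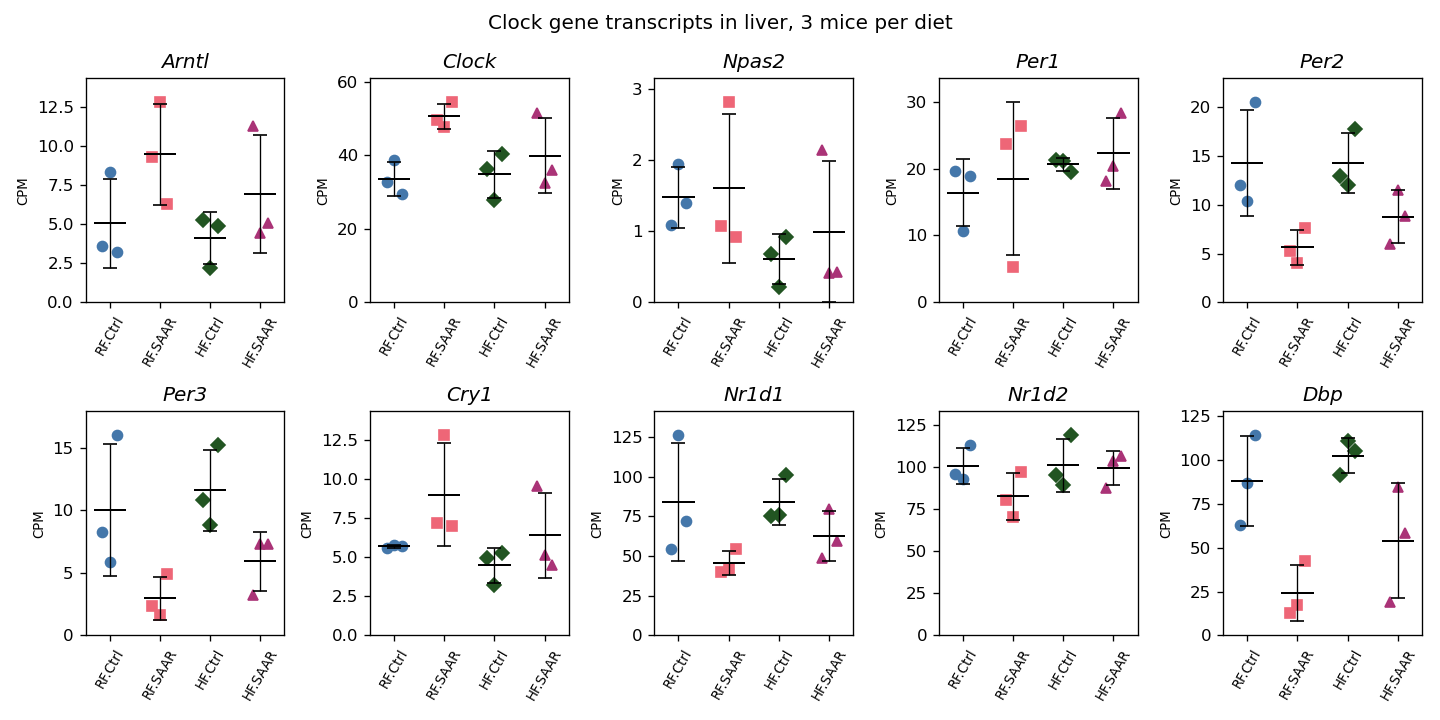
CPM (linear axis from 0) of the 10 clock genes in each mouse, by diet group on the horizontal axis, with 1 point a mouse, the group mean as a horizontal bar and the SD (n = 3) as an error bar. Per2, Per3 and Dbp lay lower in the SAAR groups than in the Ctrl group of the same fat level without overlap, and Arntl and Npas2 had 1 high HF.SAAR mouse each, at 11.3 and 2.14 CPM.

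Among the activators, Arntl (chr7:113207465-113314126, plus strand of GRCm38) stood at 3.60, 8.34 and 3.22 CPM in RF.Ctrl mice 1 to 3 and at 9.33, 12.8 and 6.32 CPM in RF.SAAR. On high fat the Ctrl mice held 5.26, 2.22 and 4.88 CPM and the SAAR mice 11.3, 4.44 and 5.09 CPM. RF.Ctrl mouse 2 lay above the lowest RF.SAAR mouse, and on high fat 1 SAAR mouse was far above all others while the remaining 2 lay inside the control range. The log2 fold change was 0.90 ± 0.48 (SE) on regular fat (edgeR adjusted p = 0.482) and 0.76 ± 0.49 on high fat (adjusted p = 0.616). Over both fat levels it was 0.83 ± 0.35, with an unadjusted p of 0.0362 that became 0.207 once adjusted over all genes by edgeR.

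Clock (chr5:76209868-76304792, minus strand), the partner of BMAL1, stood at 32.7, 38.7 and 29.6 CPM in RF.Ctrl and at 49.6, 47.7 and 54.4 CPM in RF.SAAR. The high-fat values were 36.2, 27.9 and 40.4 CPM in HF.Ctrl and 51.4, 32.4 and 36.0 CPM in HF.SAAR. The regular-fat groups did not overlap, whereas only 1 HF.SAAR mouse lay above the HF.Ctrl mice. Its log2 fold change was 0.59 ± 0.17 on regular fat (edgeR adjusted p = 0.128), 0.20 ± 0.17 on high fat (adjusted p = 0.727) and 0.39 ± 0.12 over both (adjusted p = 0.0801). The alternative test, DESeq2, called Clock on regular fat with an adjusted p of 0.0386 and over both fat levels with 0.0358.

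Npas2 (chr1:39193731-39363236, plus strand), which can take the place of CLOCK, was the scarcest member, with as few as 4 counts in a mouse. It stood at 1.09, 1.94 and 1.40 CPM in RF.Ctrl and at 1.07, 2.81 and 0.924 CPM in RF.SAAR. HF.Ctrl mice held 0.683, 0.222 and 0.914 CPM and HF.SAAR mice 2.14, 0.413 and 0.424 CPM. In each SAAR group a single mouse was high and the others lay within or below the control range. The log2 fold change was 0.11 ± 0.65 on regular fat and 0.71 ± 0.72 on high fat, with edgeR adjusted p of 0.973 and 0.770. Its sign turned on regular fat without RF.SAAR mouse 2 (-0.57) or RF.Ctrl mouse 1 (-0.07), and on high fat without HF.SAAR mouse 1 (-0.51).

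Of the repressors, Per2 (chr1:91415982-91459324, minus strand), the period gene that answers to feeding and hormonal cues as well as to the clock, stood at 12.0, 10.4 and 20.5 CPM in RF.Ctrl and at 5.22, 4.08 and 7.60 CPM in RF.SAAR. On high fat the Ctrl mice held 13.0, 12.0 and 17.8 CPM and the SAAR mice 6.00, 11.5 and 8.90 CPM. Neither pair of groups overlapped, but HF.SAAR mouse 2 lay above RF.Ctrl mouse 2. Over both fat levels Per2 fell by 1.02 ± 0.22 on the log2 scale, or 2.02-fold, with an edgeR adjusted p of 0.0173. The separate values were -1.34 ± 0.32 on regular fat (adjusted p = 0.0652) and -0.70 ± 0.31 on high fat (adjusted p = 0.375). The call over both fat levels held when each mouse was left out in turn, with adjusted p from 0.0155 to 0.0459. Without the 2 mice above 4000 acinar CPM the value was -1.08 and the adjusted p 0.0575. Without the 5 mice above 1000 acinar CPM it was -1.52, with a single mouse left in each high-fat group. With offsets for the effective length of each mouse it was -0.81 and the adjusted p 0.157.

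Per3 (chr4:151003652-151044665, minus strand), a period gene whose loss leaves the loop running, stood at 8.30, 5.88 and 16.0 CPM in RF.Ctrl and at 2.35, 1.59 and 4.93 CPM in RF.SAAR. The high-fat values were 10.8, 8.84 and 15.2 CPM in HF.Ctrl and 3.22, 7.29 and 7.30 CPM in HF.SAAR. Again neither pair overlapped, while the upper HF.SAAR mice lay above RF.Ctrl mouse 2. Over both fat levels Per3 fell by 1.36 ± 0.34 on the log2 scale, or 2.57-fold, with an edgeR adjusted p of 0.0404. The separate values were -1.76 ± 0.50 on regular fat (adjusted p = 0.128) and -0.96 ± 0.47 on high fat (adjusted p = 0.455). This call was less firm than that of Per2, since it stayed past the threshold in 2 of the 12 fits that left out 1 mouse, those without RF.Ctrl mouse 2 and without RF.SAAR mouse 3, with adjusted p from 0.0214 to 0.0987 over all 12. Without the mice above 4000 acinar CPM the value was -1.53 (adjusted p = 0.0835). Without those above 1000 it was -2.07, with a single mouse left in each high-fat group. Without a filter on low counts the adjusted p was 0.113.

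The Per3 count joins several transcripts whose shares differed between mice. The coding transcript that spans the gene held from 3.85% to 91.0% of the gene's estimated counts in a mouse. On regular fat its level was 3.76, 4.47 and 12.7 CPM in the Ctrl mice and 1.24, 0.0613 and 3.98 CPM in the SAAR mice. On high fat these were 7.90, 4.09 and 13.8 CPM and 2.34, 3.69 and 3.62 CPM. Taken alone it was lower in the HF.SAAR mice than in the HF.Ctrl mice without overlap, and on regular fat the groups overlapped. A short noncoding transcript from the 3′ part of the gene reached 3.30 CPM in RF.Ctrl mouse 1, 4.42 CPM in HF.Ctrl mouse 2, 2.49 CPM in HF.SAAR mouse 2 and 2.88 CPM in HF.SAAR mouse 3, and was at most 1.91 CPM elsewhere. Those 4 mice are among the 5 with more than 1000 acinar CPM, and the relation was not tested.

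Per1 (chr11:69095217-69109960, plus strand), the period gene most quickly induced by acute signals, stood at 19.6, 10.7 and 18.9 CPM in RF.Ctrl and at 23.6, 5.35 and 26.4 CPM in RF.SAAR. HF.Ctrl mice held 21.3, 21.1 and 19.5 CPM and HF.SAAR mice 18.1, 20.4 and 28.3 CPM. Both pairs of groups overlapped, and RF.SAAR mouse 2 was the lowest of the 12. Its log2 fold change was 0.17 ± 0.48 on regular fat (edgeR adjusted p = 0.942) and 0.11 ± 0.48 on high fat (adjusted p = 0.965). Whether Per1 differed from Per2 and Per3 in its response was not tested.

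Cry1 (chr10:85131700-85185064, minus strand), a strong repressor of BMAL1 and CLOCK that runs late in the cycle, stood at 5.61, 5.78 and 5.71 CPM in RF.Ctrl and at 7.20, 12.8 and 6.98 CPM in RF.SAAR. On high fat the Ctrl mice held 4.98, 3.22 and 5.24 CPM and the SAAR mice 9.54, 5.17 and 4.52 CPM. On regular fat the groups did not overlap, and on high fat only 1 SAAR mouse stood above the controls. The log2 fold change was 0.66 ± 0.30 on regular fat (edgeR adjusted p = 0.367), 0.52 ± 0.31 on high fat (adjusted p = 0.560) and 0.59 ± 0.22 over both (adjusted p = 0.139).

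Nr1d1 (chr11:98767932-98775333, minus strand), which makes REV-ERBα, stood at 54.2, 126 and 71.9 CPM in RF.Ctrl and at 40.1, 42.1 and 54.3 CPM in RF.SAAR. The high-fat values were 75.0, 76.1 and 101 CPM in HF.Ctrl and 49.0, 79.8 and 59.3 CPM in HF.SAAR. The regular-fat groups met at 54.2 and 54.3 CPM, and 1 HF.SAAR mouse lay inside the HF.Ctrl range. Its log2 fold change was -0.89 ± 0.29 on regular fat (edgeR adjusted p = 0.186), -0.42 ± 0.29 on high fat (adjusted p = 0.634) and -0.66 ± 0.20 over both (adjusted p = 0.0892). By DESeq2 the adjusted p of Nr1d1 was 0.0297 on regular fat and 0.0108 over both. Of the exon bases of Nr1d1, 263 of 3077 lie over exons of Thra, a thyroid hormone receptor gene on the other strand. Whether the counting used strand was not given in the sources used here, so reads from these bases are uncertain, and Thra itself lay between 12.5 and 23.5 CPM with an edgeR adjusted p of 0.939 over both fat levels.

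Nr1d2 (chr14:18204054-18239127, minus strand), which makes REV-ERBβ, varied least of all members, with a highest mouse 1.70 times the lowest. It stood at 96.1, 93.1 and 113 CPM in RF.Ctrl and at 80.3, 70.2 and 97.5 CPM in RF.SAAR. HF.Ctrl mice held 95.4, 89.2 and 119 CPM and HF.SAAR mice 87.9, 104 and 107 CPM. Both pairs overlapped, and the log2 fold change was -0.28 ± 0.15 on regular fat and -0.02 ± 0.14 on high fat, with edgeR adjusted p of 0.437 and 0.981. Scaled by library size alone, the high-fat value was 0.14.

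Dbp (chr7:45705088-45710203, plus strand) encodes a transcription factor that carries the rhythm to liver enzymes through D-boxes. It stood at 62.7, 86.9 and 114 CPM in RF.Ctrl and at 12.8, 17.4 and 42.2 CPM in RF.SAAR. On high fat the Ctrl mice held 91.6, 111 and 105 CPM and the SAAR mice 19.0, 84.4 and 58.5 CPM. Neither pair of groups overlapped, but HF.SAAR mouse 2 lay close to the HF.Ctrl mice and above RF.Ctrl mouse 1. The log2 fold change was -1.86 ± 0.58 on regular fat (edgeR adjusted p = 0.187), -0.93 ± 0.57 on high fat (adjusted p = 0.590) and -1.40 ± 0.41 over both (adjusted p = 0.0836). DESeq2 gave Dbp an adjusted p of 0.0265 on regular fat and 0.00820 over both. Of its 2993 exon bases, 539 lie over exons of Sphk2 on the other strand. Sphk2 lay between 29.4 and 53.4 CPM with an edgeR adjusted p of 0.724 over both fat levels, and the main coding transcript of Dbp held from 63.4% to 77.1% of the gene's counts.

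**Figure D2:**
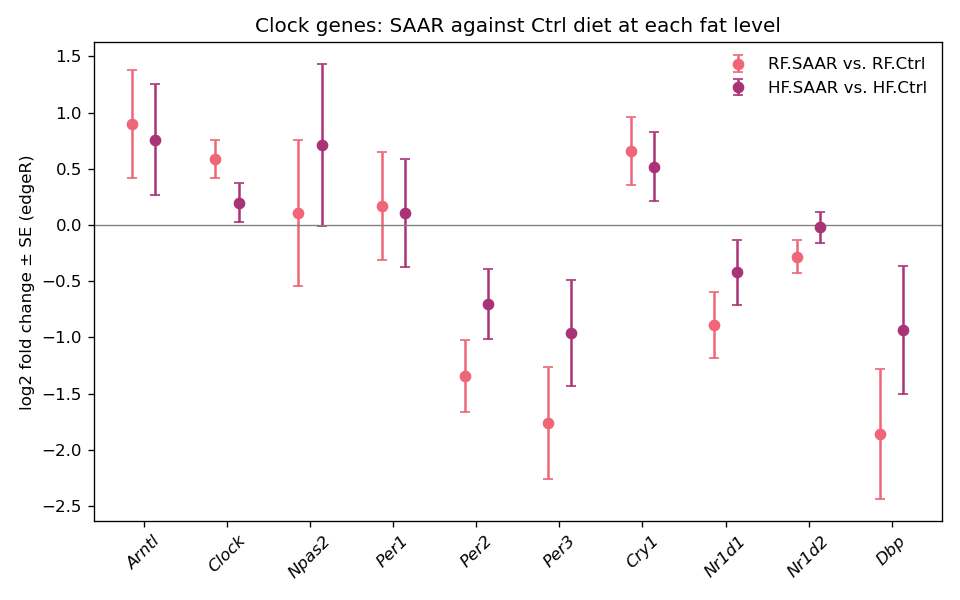
Log2 fold changes of SAAR against Ctrl from edgeR, with their SE as error bars, for the 10 clock genes at each fat level. The points run from -1.86 for Dbp to 0.90 for Arntl on regular fat, and from -0.96 for Per3 to 0.76 for Arntl on high fat.

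Counted over the members, 0 of 10 were called by edgeR for RF.SAAR vs. RF.Ctrl, where 1.49% of all genes tested were called. There 6 members had an unadjusted p under 0.05, as did 1988 of the 14670 genes. DESeq2 called 5 members in that comparison, Clock, Per2, Per3, Nr1d1 and Dbp, where it called 4.80% of all genes it tested. For HF.SAAR vs. HF.Ctrl edgeR called 0 of 10, against 1.97% of all genes. On high fat 1 member had an unadjusted p under 0.05, as did 1825 of the 14670 genes. DESeq2 also called 0 members there, against 4.66% of its genes. Over both fat levels edgeR called 2 of 10, both in the lower direction, where 6.92% of all genes were called and 3.70% were called lower. An unadjusted p under 0.05 was reached by 7 members and by 2974 of the 14670 genes. DESeq2 called 5 members over both fat levels, again Clock, Per2, Per3, Nr1d1 and Dbp, against 9.03% of its genes. The median log2 fold change of the members was -0.0858 on regular fat and 0.0452 on high fat, since 5 members lay above 0 and 5 below in each comparison, and that of all genes was -0.00131 and -0.00144.

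Groups that did not overlap were seen for 5 members on regular fat, Clock, Per2, Per3, Cry1 and Dbp, where 18.2% of all genes were so separated. On high fat there were 3, Per2, Per3 and Dbp, against 17.9% of all genes. With the 6 SAAR mice set against the 6 Ctrl mice no member was separated, against 4.30% of all genes. HF.SAAR mouse 1 lay within the range of the RF.SAAR mice for all 10 members. Ranked over all 12 mice, HF.SAAR mouse 1 was second highest for Arntl, Clock, Npas2 and Cry1 and the third lowest for each of the other 6 members. HF.SAAR mice 2 and 3 are also the SAAR mice with 2698 and 13187 acinar CPM, against 31.3 CPM in mouse 1, and the part of that difference in the clock values was not tested.

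Single mice of the other groups stood out across several members too. RF.SAAR mouse 2 was the highest of the 12 for Arntl, Npas2 and Cry1 and the lowest for Per1, Per2, Per3 and Nr1d2. HF.Ctrl mouse 2 was the lowest for Arntl, Clock, Npas2 and Cry1. RF.Ctrl mouse 2 had the highest Nr1d1 of all and, among the Ctrl mice, the highest Arntl and the lowest Per1, Per2 and Per3. Per1, Nr1d1 and Arntl varied inside a diet group by up to 4.93, 2.33 and 2.59 times between the highest and the lowest mouse, in RF.SAAR for Per1 and in RF.Ctrl for the other 2.

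The ratio of Dbp to Arntl CPM set the output gene against the activator in each mouse. It was 17.4, 10.4 and 35.5 in RF.Ctrl and 1.37, 1.36 and 6.67 in RF.SAAR. In HF.Ctrl it was 17.4, 49.9 and 21.6 and in HF.SAAR 1.69, 19.0 and 11.5. The regular-fat groups did not overlap in this ratio, and on high fat the ranges met since HF.SAAR mouse 2 lay above HF.Ctrl mouse 1.

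**Figure D3:**
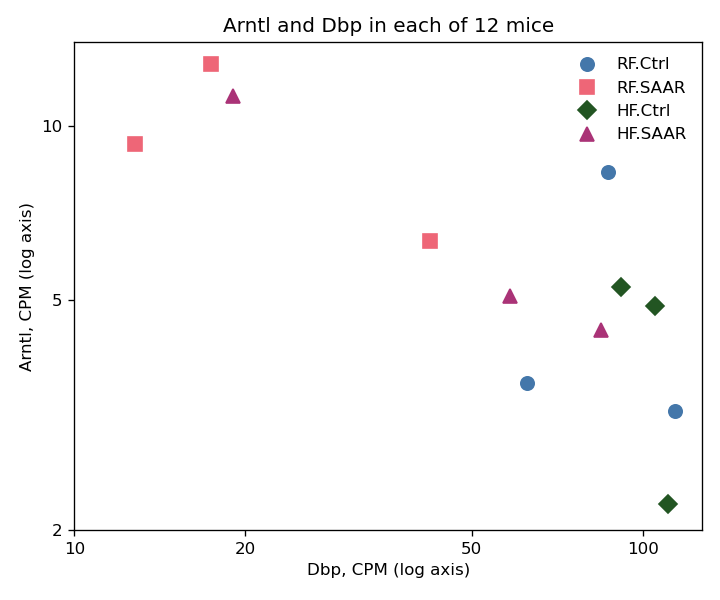
Arntl (vertical axis) against Dbp (horizontal axis), both in CPM on log axes, with 1 point for each of 12 mice and a symbol for each diet group. RF.SAAR mice 1 and 2 and HF.SAAR mouse 1 sit at the upper left, with Dbp at 12.8, 17.4 and 19.0 CPM, apart from the other 9 mice at 42.2 CPM or above.

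Whether the fat content altered the response to SAAR was asked by the interaction of diet and fat. edgeR called 0 of the 10 members, with 0.00682% of all genes called. An unadjusted p under 0.05 was reached by 0 members and by 462 of the 14670 genes. DESeq2 likewise called 0. The difference between the responses, high fat minus regular fat, was 0.64 ± 0.44 for Per2, 0.80 ± 0.68 for Per3 and 0.94 ± 0.80 for Dbp on the log2 scale, each with an edgeR adjusted p of 0.999. These differences were smaller than 2 SE for each of the 3 genes. Without the 5 mice above 1000 acinar CPM the differences turned to -0.14, -0.38 and -0.43. A single mouse was then left in HF.Ctrl and in HF.SAAR, so these values rest on 1 mouse in each high-fat group.

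The fat content itself was compared in each diet. For HF.Ctrl vs. RF.Ctrl edgeR called 0 of 10 members and 0% of all genes, and DESeq2 and an unadjusted p under 0.05 gave 0 members. Of the 14670 genes 527 had such an unadjusted p. For HF.SAAR vs. RF.SAAR edgeR called 0 members and 0.0477% of all genes, and over both diets 0 members and 0.0409%. In these comparisons too, DESeq2 called 0 members and 0 had an unadjusted p under 0.05, against 820 and 857 of the 14670 genes. Npas2 had the largest fitted difference between the control groups, -1.29 ± 0.71 (edgeR adjusted p = 1), and over both diets -0.99 ± 0.49 (adjusted p = 0.881). Its HF.Ctrl mice lay below its RF.Ctrl mice without overlap, as did those of Cry1, where 8.51% of all genes were so separated.

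Levels of different genes can be compared only per transcript length, for which the authors' TPM, which correct each transcript for its length, were summed by gene. Over the 12 mice Dbp averaged 39.9 TPM, Nr1d2 30.1 TPM and Nr1d1 29.7 TPM. Clock followed with 5.32 TPM, Per1 with 4.67 TPM, Arntl with 2.59 TPM, Per2 with 2.41 TPM, Cry1 with 2.25 TPM, Per3 with 1.48 TPM and Npas2 with 0.822 TPM. The first 3 formed a tier whose ranges, from 9.79 to 67.1 TPM for Dbp, 20.7 to 37.4 for Nr1d2 and 18.0 to 55.1 for Nr1d1, overlapped widely. Arntl, Per2 and Cry1, at 0.645 to 5.24, 0.748 to 4.07 and 0.828 to 4.57 TPM, overlapped as well. On this scale Per2 averaged 3.18 ± 0.998 TPM (SD, n = 3) in RF.Ctrl and 1.80 ± 0.920 in RF.SAAR, and 2.43 ± 0.557 in HF.Ctrl and 2.22 ± 1.26 in HF.SAAR, a smaller contrast than in CPM. The effective length of Per2, a mean over its transcripts weighted by their TPM, ran from 2584 to 6016 bases between mice. A short noncoding transcript of Per2 held at most 1.69% of its counts.

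Within diet groups, the members were compared by the deviations of log2 CPM from the group means, with an exact permutation of one gene's deviations inside each group (all arrangements, two-sided, smallest possible p 0.000772). Of 45 pairs, 7 had an adjusted p under 0.05 by Pearson's r and 4 by Spearman's rho. Per2 and Per3 moved together (r = 0.966, exact p = 0.00154, adjusted p = 0.0231, rho = 0.951, exact p = 0.00154, adjusted 0.0231). Each went with Nr1d2, with r of 0.910 (exact p = 0.00309, adjusted 0.0278) for Per2 and 0.936 (exact p = 0.000772, adjusted 0.0231) for Per3. Their rho with Nr1d2 was 0.930 (exact p = 0.00154) and 0.951 (exact p = 0.000772), both 0.0231 once adjusted. Without the 2 mice farthest from the median of the first gene, r was 0.961, 0.880 and 0.900 for these 3 pairs.

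Npas2 went with Cry1 (r = 0.963, exact p = 0.00154, adjusted 0.0231, rho = 0.951, exact p = 0.00772, adjusted 0.0694) and with Arntl (r = 0.878, exact p = 0.00540, adjusted 0.0347, rho = 0.846, exact p = 0.00386, adjusted 0.0434). Per1 ran against Cry1 (r = -0.678, exact p = 0.00309, adjusted 0.0278, rho = -0.664, exact p = 0.0139, adjusted 0.0893) and against Npas2 (r = -0.630, exact p = 0.00386, adjusted 0.0289, rho = -0.552, exact p = 0.0656, adjusted 0.206). Without the 2 farthest mice these 4 pairs gave r of 0.944, 0.817, -0.711 and -0.621. Arntl against Dbp gave -0.617 (exact p = 0.0610, adjusted 0.180, rho = -0.664, exact p = 0.0455, adjusted 0.205) and did not pass. With Arntl, Npas2 and Cry1, Nr1d1 gave r of 0.151, -0.0437 and -0.183 and Nr1d2 -0.417, -0.320 and -0.380. None of these passed the permutation test (adjusted p from 0.385 to 0.934). The number of pairs that passed dropped to 0 on log2 of TPM + 1 and in 8 of the 12 sets that left out 1 mouse, any mouse of RF.Ctrl or RF.SAAR, HF.Ctrl mouse 3 and HF.SAAR mouse 1, or without the mice above 4000 acinar CPM. The smallest p then possible is 0.00231 with 1 mouse left out and 0.00694 without the acinar-rich mice. Such a p passes the adjustment over 45 pairs only where several pairs reach it. On log2 of TPM + 1 all 12 mice were kept, with a smallest possible permutation p of 0.000772. The part of the smaller sets in the other zeros was not tested. Both genes of a pair always came from the same libraries.

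**Figure D4:**
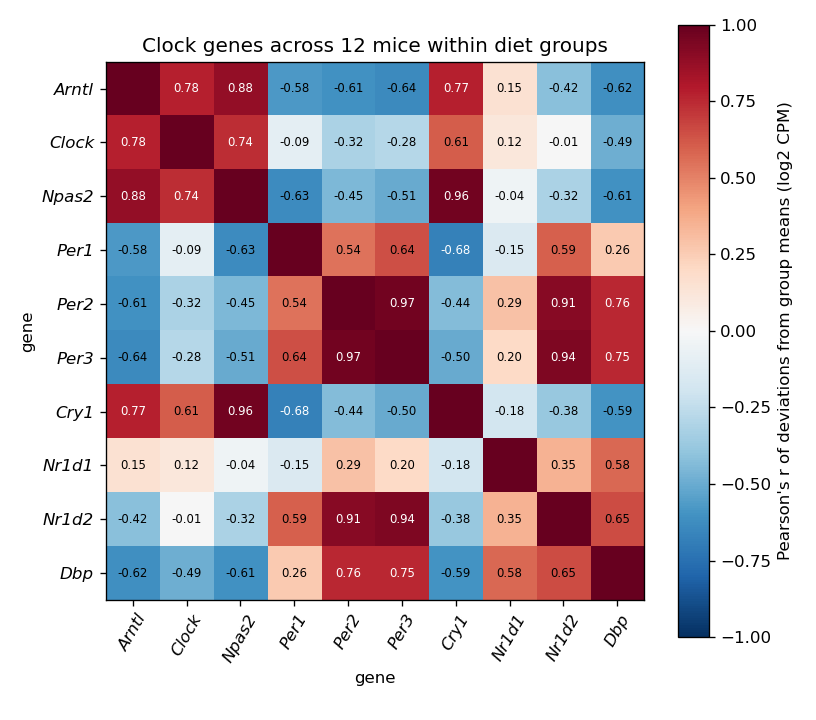
Pearson's r between each pair of the 10 clock genes (both axes), from deviations of log2 CPM from the diet group means over 12 mice, on a colour scale from -1 to 1. Per2, Per3 and Nr1d2 form a block with r of 0.91 or more, Arntl, Clock, Npas2 and Cry1 form another with r from 0.606 to 0.963, and Nr1d1 stands weakly related to most members. Without the 2 mice farthest from the Nr1d1 median, its r was 0.832 in place of 0.576 with Dbp and 0.819 in place of 0.347 with Nr1d2.

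By likeness over all 12 mice, diet differences included, the tested genes outside the members closest to Dbp were Tef (Pearson's r = 0.945), Bhlhe41 (0.934), Stard4 (0.916), Galnt11 (0.915) and Pdia3 (0.893). Tef and Bhlhe41 are themselves clock factors. Among the members, Per2 and Per3 stood nearest to Dbp, with r of 0.922 and 0.920. Among the genes closest to Arntl were Lrp5 (0.937), Ccng2 (0.924), Nedd4l (0.922) and St5 (0.921), ahead of Cry1 (0.860) and Clock (0.856). These values describe 12 mice searched over 14670 genes.

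Further clock factors that fell over both fat levels included Bhlhe41 and Tef. Bhlhe41, which makes the E-box repressor DEC2, fell by 1.54 ± 0.28 on the log2 scale (edgeR adjusted p = 0.00692). The regular-fat mice held 4.81, 10.6 and 6.93 CPM on Ctrl and 1.76, 1.91 and 2.67 CPM on SAAR. The high-fat mice held 9.97, 8.73 and 11.9 CPM on Ctrl and 1.93, 6.87 and 3.82 CPM on SAAR. Both pairs of groups were apart, and HF.SAAR mouse 1 again lay with the RF.SAAR mice. Tef, a D-box activator related to Dbp, fell by 0.63 ± 0.15 (adjusted p = 0.0226). Cry2, Rora, Bhlhe40, Ciart, Nfil3 and Hlf did not pass. Of the 9 further clock factors 7 had negative and 2 positive values over both fat levels, where 49.3% of all genes were positive. Their median log2 fold change was -0.391, against -0.00522 for the 10 members and -0.00386 for all genes.

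Genes that act on clock proteins or follow the clock were read against the 6.92% of all genes called over both fat levels. Of 8 kinase and protein turnover genes 0 were called by edgeR over both fat levels, 1 had an unadjusted p under 0.05 and DESeq2 called 1. The lowest p were those of Btrc (-0.41 ± 0.12, edgeR adjusted p = 0.0558), a ubiquitin ligase subunit for PER proteins, and Usp2 (-0.93 ± 0.44, adjusted p = 0.286), a rhythmic deubiquitinase. Of 15 rhythmic liver output genes 1 was called, a share near that of all genes. It was Cyp2a5, a cytochrome P450 whose rhythm depends on D-box factors. It rose by 0.78 ± 0.16 (adjusted p = 0.0150) over both fat levels and by 1.26 ± 0.23 on high fat (adjusted p = 0.0185). In the high-fat comparison Dbp and Tef had negative values that were not called (edgeR adjusted p = 0.590 and 0.326). The relation of Cyp2a5 to these 2 genes was not tested. On regular fat Cyp2a5 gave 0.30 ± 0.23 (adjusted p = 0.657).

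Lists of cues that reach the liver clock were read the same way, beside the same 6.92% of all genes, and with so few genes a list the counts describe the named genes only. Of 7 heat shock and temperature genes 1 rose, the chaperone gene Hspa8 (0.30 ± 0.06, edgeR adjusted p = 0.00935), with all 6 SAAR mice at or above 1334 CPM and all 6 Ctrl mice at or below 1301 CPM. Of 8 genes responsive to glucocorticoids 1 fell, Klf9 (-0.28 ± 0.08, adjusted p = 0.0499). Of 8 fasting and feeding genes 2 rose and 1 fell. Pdk4, a brake on pyruvate oxidation, rose by 1.97 ± 0.41 (adjusted p = 0.0226), Ppargc1a, a coactivator raised in fasting, rose by 0.79 ± 0.16 (adjusted p = 0.0107), and Srebf1, a driver of lipid synthesis after meals, fell by 0.80 ± 0.16 (adjusted p = 0.0121). The parts of feeding time, of body temperature and of the hour of collection in the clock values were not tested.

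Markers of other liver cells were read beside the clock genes and the 6.92% of all genes called over both fat levels. With both fat levels joined edgeR called 1 of 6 endothelial markers, Lyve1, higher (0.55, adjusted p = 0.00746), 1 of 6 stellate markers, Lrat, lower (-0.59, adjusted p = 0.0177), and 1 of 5 cholangiocyte markers, Spp1, lower (-0.46, adjusted p = 0.00767). The summed endothelial markers ranged from 243 to 287 CPM in Ctrl mice and from 260.2 to 288 CPM in SAAR mice. The stellate sum ranged from 257 to 315 and from 240.2 to 316 CPM, the cholangiocyte sum from 42.9 to 62.0 and from 35.2 to 42.9 CPM, and the Kupffer cell sum from 214 to 314 and from 231 to 363 CPM. Adipocyte markers summed to at most 9.09 CPM and lymphocyte markers to at most 49.1 CPM. The part of these cells in the clock values was not tested.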

How the data were processed

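Liver RNA of 12 mice was sequenced from poly(A)-selected libraries. The authors trimmed the reads with cutadapt, checked them with FastQC and assigned them with kallisto to the Ensembl mouse transcriptome. The deposited files give, for each of 118489 transcripts and each mouse, estimated counts, TPM and effective lengths. The estimated counts carry no normalization between mice, and replicates are separate mice. Whether kallisto was run with a strand setting was not given in the sources used here.

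Transcripts were joined to genes with the GENCODE vM21 annotation of GRCm38. Of the transcripts, 116816 matched, and 0.704% to 1.8% of a mouse's counts belonged to transcripts that did not. Counts were summed by gene, rounded and tested in R 4.3.3 with edgeR 4.0.16 (scaling by TMM, genes kept by filterByExpr, a robust quasi-likelihood model with 4 group means over 12 mice, Benjamini-Hochberg over 14670 genes, threshold 0.05). DESeq2 1.42.0, the tool the authors used, served as an alternative. The SE is the log2 fold change divided by the square root of F. The common biological coefficient of variation was 0.215. Total counts of 16203094 to 21230092 set the precision, and as estimated counts are not independent molecules, errors come from the spread between mice. Both procedures were tested on simulated data.

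The members, the gene lists and the tests were chosen with earlier results of these data known. Named are all members, the called genes of each further list or otherwise its 2 genes with the smallest p, and the 5 genes most like Arntl and Dbp. Some genes that this rule names are not reported here. Comparisons that share a control group are not independent. The alternatives were RLE size factors, library size alone, no filter on low counts, a floor of 10 counts that every mouse had to reach, DESeq2, effective-length offsets, the compared groups alone, leaving out the mice above 4000 acinar CPM and leaving out each mouse, and for the correlations a prior count of 0.5, log2 of TPM + 1 and no centring. Leaving out the mice above 1000 acinar CPM was added after seeing the data.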

Additional observations from a re-analysis of the deposited data

How the results depend on the processing

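No paired analysis was possible because the labels give no replicate numbers, and the numbers that name the mice here follow accession order. Over both fat levels the count of clock genes called, 2 of 10, was 4 with library size alone, 5 with DESeq2, 1 without a low-count filter (Per3 lost, adjusted p = 0.113), 1 with effective-length offsets (Per2 lost, 0.157), and 0 without the mice above 4000 acinar CPM. It ranged from 1 to 3 over the 12 fits that left out 1 mouse. It was 1 without RF.Ctrl mouse 3, RF.SAAR mouse 1 or 2, any HF.Ctrl mouse, or HF.SAAR mouse 1 or 3. On regular fat it was 5 with DESeq2 in place of 0, and in every other comparison it stayed at 0. Without RF.Ctrl mouse 1 or HF.SAAR mouse 2 Per3 was lost and Nr1d1 or Clock called in its place, and without RF.SAAR mouse 3 Dbp was called as well. Per2 and Per3 kept their sign under every alternative run for the 3 SAAR comparisons. Library size alone moved the median log2 fold change of all genes to 0.163 over both fat levels, with 88.8% of calls higher in place of 46.5%, and to 0.164 and 0.166 on regular and high fat (84.5% and 88.9% higher, in place of 40.4% and 51.2%).

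Members that were not called changed sign as follows. Npas2 gave -0.66 on regular fat and -0.32 over both with effective-length offsets, and -0.07 on regular fat without the mice above 1000 acinar CPM. Nr1d2 gave 0.14 on high fat and 0.01 over both with library size alone. Per1 gave -0.09 and -0.13 on high fat without the mice above 4000 and 1000 acinar CPM. The interaction gave -0.14 for Per2, -0.38 for Per3 and -0.43 for Dbp without the mice above 1000. That setting left a single mouse in each high-fat group. With 1 mouse left out, values ranged on regular fat from -0.57 to 0.39 for Npas2 and -0.17 to 0.61 for Per1, on high fat from -0.51 to 1.15 for Npas2, -0.10 to 0.24 for Per1, -0.10 to 0.11 for Nr1d2 and -0.02 to 0.32 for Clock, and over both from -0.20 to 0.63 for Npas2 and -0.03 to 0.36 for Per1.

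Of all genes, 218 were called on regular fat, 425 with library size alone, 591 with DESeq2, 81 without the mice above 1000 acinar CPM and 87 to 244 with 1 mouse left out. On high fat these were 289, 719, 595, 6 and 110 to 310, with 141 without the mice above 4000 and 190 for the compared groups alone. Over both fat levels they were 1015, then 2449 with library size alone, 234 without the mice above 1000 and 655 to 968 with 1 mouse left out. The interaction gave 1 gene, 16 with DESeq2, 0 with effective-length offsets or without the mice above 4000, and 0 to 2 with 1 mouse left out. HF.Ctrl vs. RF.Ctrl gave 0 genes, 1 with library size alone, 3 without a filter, 31 with DESeq2, 2 for the compared groups alone and 0 to 2 with 1 mouse left out. HF.SAAR vs. RF.SAAR gave 7, then 4, 14 and 85 in the first 3 of these settings, 0 without the mice above 4000, and 1 to 7 with 1 mouse left out. HF vs. RF over both diets gave 6, then 18 without a filter, 122 with DESeq2, 0 without the mice above 4000 and 0 to 11 with 1 mouse left out. The 7 pairs of clock genes past the threshold were 0 on log2 of TPM + 1, 24 without centring, 0 without the mice above 4000, and 0 to 8 with 1 mouse left out. Without the mice above 1000 the smallest possible p was 0.0833, so no pair could pass. Without those above 4000 it was 0.00694, which passes the adjustment over 45 pairs only where several pairs reach it. The causes of these shifts were not tested. Npas2, with as few as 4 counts in a mouse, is the member most limited by depth.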
